A study of Mus musculus with 24 samples.

Results

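The libraries described here are the total mRNA libraries of normal (N) mouse pancreatic organoids that received vehicle or CR-31 at 10 nM (labelled CR1-31-b) for 1 h. They were chosen from the sample labels by organoid, RNA source and treatment, and they number 6 of the 24 libraries of the series, 3 per treatment and paired by replicate number. N organoids were grown from duct isolates of wildtype C57Bl/6J pancreas, and the vehicle was DMSO. All cultures were kept without EGF and N-acetylcysteine for the experiment, and all received cycloheximide for the last minutes of the treatment. A part of each lysate was set aside before the sucrose gradient and gave the total mRNA, while the mRNA bound by 3 or more ribosomes gave the polysome libraries. KP organoids, used here only for comparison, came from tumours of mice with engineered alleles, p53 R172H among them, and were treated in the same way. The question is how transcript levels themselves differed after 1 h of CR-31, apart from the loading of mRNA onto ribosomes.

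eIF4A is an RNA helicase that unwinds the 5′ end of mRNAs as part of the cap-binding complex eIF4F, together with the cap-binding protein eIF4E and the scaffold eIF4G. CR-31 is a rocaglate, a class of compounds that clamp eIF4A onto purine-rich RNA. Blocking translation is also known to act on transcript levels, because short-lived mRNAs such as those of the immediate early genes are degraded more slowly when they are not translated. In pancreatic ducts the epithelium expresses simple keratins, Epcam and Sox9, and organoids of this kind are cultures of such epithelium.

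Counted reads per library were between 72077342 and 144504307, and 11438 genes with a count above 0 in all 24 libraries were tested. Of 15 duct markers, 14 reached at least 1 CPM (a gene's count scaled to the size of its library) in all 6 libraries, with Krt19 between 1480 and 1980 CPM and Epcam between 403 and 672 CPM. The summed level of the duct markers was 10200 to 15700 CPM with vehicle and 14100 to 15300 CPM with CR-31. Of 13 acinar markers 11 had a row, Cela1 alone reached 1 CPM in all 6 libraries, and 4 (Cpa1, Pnlip, Amy2b and Ptf1a) had 0 counts in every one. The 10 endocrine markers summed to at most 0.157 CPM and the 10 fibroblast markers to at most 2.02 CPM. Of 8 immune markers, Cd68 and Csf1r passed 1 CPM in all 6 libraries, the sum was 15.6 to 25.2 CPM with vehicle and 16.3 to 30.4 CPM with CR-31, and Ptprc, the pan-leukocyte gene, was at most 0.0277 CPM. The part of these cells in the results was not tested. In bulk RNA, fewer cells of a type and less RNA per cell cannot be told apart.

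Replicate 3 stands apart from replicates 1 and 2 in this comparison. The Y-linked genes Ddx3y, Eif2s3y, Kdm5d and Uty summed to 0 CPM of all counted reads in the vehicle libraries of replicates 1 and 2 and to at most 0.0971 CPM in their CR-31 libraries, while replicate 3 had 62.9 CPM with vehicle and 119 CPM with CR-31. The labels do not say whether the replicates came from separate animals. The p-values measure the spread between the N and KP pairs, which were fitted together, and that spread may not be one between animals. The pair of replicate 3 also differed more within itself, with a median size of log2 change over all tested genes of 0.39, against 0.15 in pair 1 and 0.18 in pair 2. More than 2-fold higher with CR-31 were 96 genes in pair 1, 77 in pair 2 and 582 in pair 3. Results are therefore given with and without replicate 3. Libraries also fell on 2 lanes. Vehicle replicates 1 and 2 and CR-31 replicate 1 shared a lane, and vehicle replicate 3 and CR-31 replicates 2 and 3 shared the other, so that pairs 1 and 3 lie within a lane and pair 2 lies across them.

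With CR-31, 6 genes rose and 1 gene fell at an adjusted p under 0.25 (edgeR's quasi-likelihood test with Benjamini-Hochberg adjustment, replicate number as a block, n = 3 pairs), which is 0.0525% and 0.00874% of the 11438 tested, or 0.0612% in either direction. The genes that rose were Maged1, App, Prom1 and the 3 neighbouring heat shock genes Hspa1a, Hspa1b and Hspa1l, and the gene that fell was Gm8909. At an adjusted p under 0.05, Gm8909 alone passed (0.00874%). In all 1056 genes (9.23%) had an unadjusted p under 0.05, 644 of them higher (5.63%) and 412 lower (3.6%). The median log2 change over all tested genes was 0.00, a value that the TMM scaling centres, so an overall shift of transcript levels could not be seen. Without replicate 3, 0 genes passed (smallest adjusted p 0.395) and 408 had an unadjusted p under 0.05, of which 333 were higher (2.91%) and 75 lower (0.656%). The 6 higher genes kept log2 fold changes of 0.79 to 1.06 there, each with an adjusted p of 0.871. Without replicate 1, Gm8909 alone passed. Without replicate 2, 3 genes passed, of which Gm8909 was among the 7 and the histone genes Hist1h2an and Hist1h2bp were not. Without the replicate block 0 genes passed while 297 (2.6%) had an unadjusted p under 0.05. DESeq2 with the block called 275 genes and limma-voom 31.

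Hspa1a and Hspa1b encode the inducible Hsp70 chaperone and are near-identical copies, and Hspa1l is a related gene of the same cluster on chromosome 17. On GRCm38 (GENCODE M21), Hspa1a lies at chr17:34969190-34972156 and Hspa1b at chr17:34956436-34959238, both on the minus strand, and Hspa1l lies at chr17:34972703-34979285 on the plus strand, head to head with Hspa1a. Counts covered whole transcripts of coding genes, and reads with several matches were discarded, so the division of reads between these copies is uncertain. The promoter sequences of both chaperone genes are shown because the heat shock element is the binding motif of the heat shock factor. Capitals mark the motif GAANNTTC, which reads the same on both strands, in 30 bases of the RefSeq promoter table on GRCm38.p6, 5′ to 3′ on the strand of the gene. The windows lie at chr17:34972242-34972271 (Hspa1a, minus), chr17:34959324-34959353 (Hspa1b, minus), chr4:40722333-40722362 (Dnaja1, plus) and chr1:55088053-55088082 (Hspe1, plus).
Hspa1a: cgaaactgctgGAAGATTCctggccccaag
Hspa1b: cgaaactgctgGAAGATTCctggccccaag
Dnaja1: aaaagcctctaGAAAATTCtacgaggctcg
Hspe1: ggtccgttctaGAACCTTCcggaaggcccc
The windows of Hspa1a and Hspa1b are the same over their whole length, and in each the motif starts 104 bases before the gene's start. Dnaja1 and Hspe1 are shown because they hold the same motif and did not pass the test.

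Hspa1a had 158, 154 and 165 CPM in vehicle replicates 1 to 3 and 317, 270 and 457 CPM with CR-31. All 3 CR-31 libraries were above all 3 vehicle libraries, and the vehicle libraries lay close together. Its log2 fold change was 1.09 (SE 0.17, adjusted p = 0.173), and 0.91 without replicate 3. Hspa1b had 213, 196 and 198 CPM with vehicle and 408, 350 and 557 CPM with CR-31. Its log2 fold change was 1.09 (SE 0.17), and 0.89 without replicate 3. Hspa1l was expressed at a lower level, with 11.5, 11 and 10.8 CPM with vehicle and 23.2, 20.2 and 32.5 CPM with CR-31 (log2 fold change 1.16, SE 0.18). For all 3 genes pair 3 had the largest change of the 3 pairs.

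Maged1, a member of the MAGE family of adaptor proteins at chrX:94535474-94542143, had 120, 182 and 103 CPM with vehicle and 235, 358 and 252 CPM with CR-31. The groups did not overlap, and the change was 0.97, 0.97 and 1.28 on the log2 scale in pairs 1, 2 and 3 (fitted log2 fold change 1.08, SE 0.16, adjusted p = 0.173). App, the amyloid precursor protein gene at chr16:84949685-85173766, had 473, 491 and 458 CPM with vehicle and 815, 856 and 968 CPM with CR-31 (0.89, SE 0.14). Prom1, which encodes the membrane glycoprotein CD133 of duct and progenitor cells and lies at chr5:43993620-44102032, had 372, 745 and 537 CPM with vehicle and 714, 1690 and 1230 CPM with CR-31. Its groups overlapped, since vehicle replicate 2 was above CR-31 replicate 1, but CR-31 was higher in 3 of 3 pairs (1.11, SE 0.18).

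**Figure D1:**
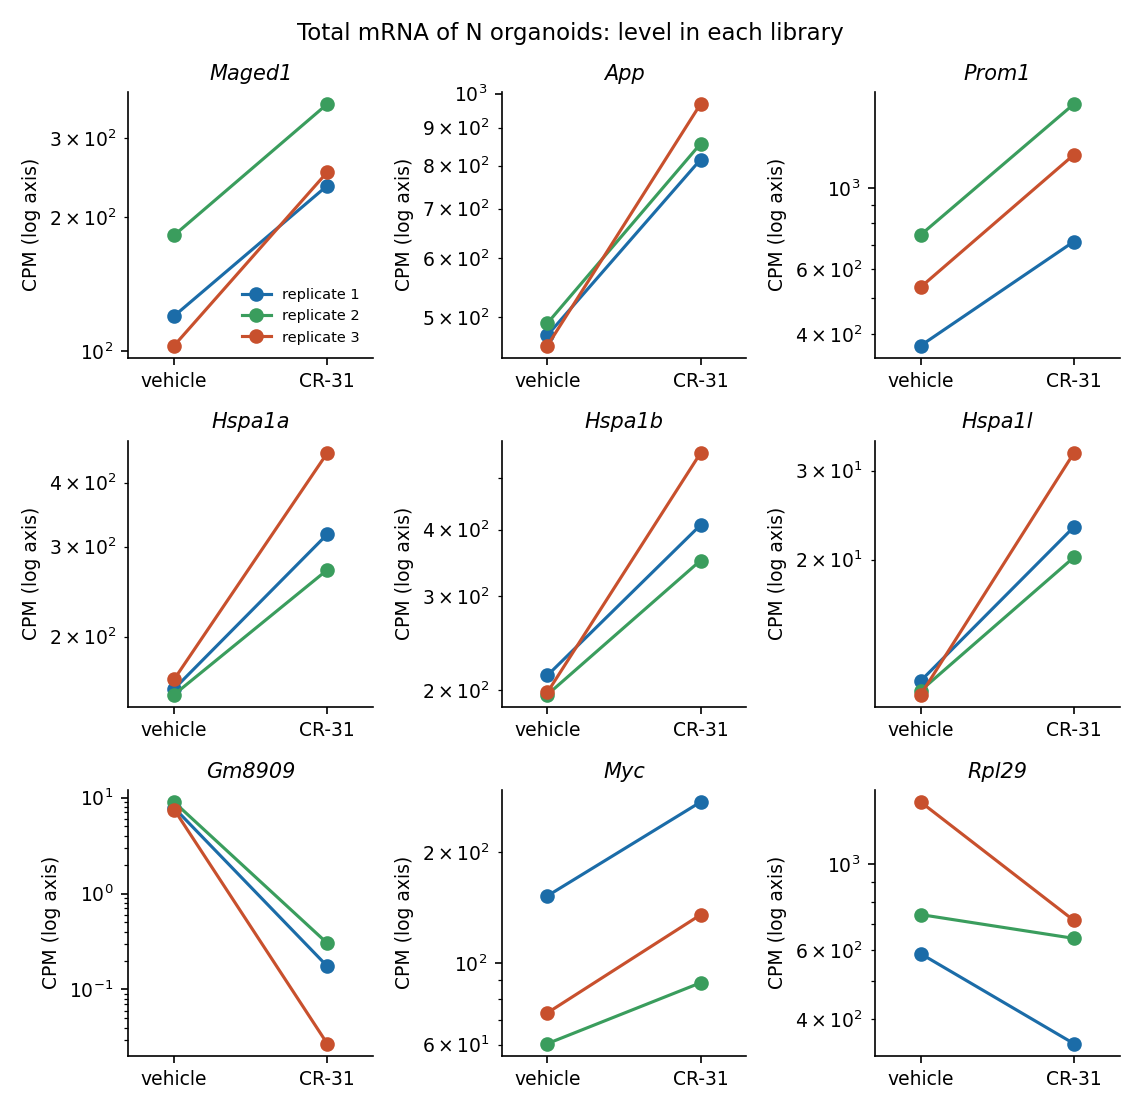
Level in each total mRNA library of N organoids, in CPM on a log axis, with vehicle on the left and CR-31 on the right, and each line joins the libraries of a replicate. The 6 genes that rose go up in 3 of 3 pairs, Gm8909 goes down in 3 of 3, and Myc and Rpl29, which did not pass the test, are shown beside them.

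By the rule for naming genes, the next 4 genes by p among those higher in 3 of 3 pairs were Myo1e, Lamb3, Hdac6 and Actn1, each with an adjusted p of 0.265. Myo1e is a class I myosin of the cell cortex (0.74, SE 0.13), Lamb3 the laminin beta 3 chain of the basement membrane (0.81, SE 0.15), Hdac6 the cytoplasmic tubulin deacetylase (0.88, SE 0.16) and Actn1 the actin cross-linker alpha-actinin 1 (0.74, SE 0.14). Without replicate 3, the smallest p among genes higher in both remaining pairs was that of Acly, the ATP citrate lyase that supplies acetyl-CoA for lipid synthesis. Acly had 199, 136 and 116 CPM with vehicle and 340, 253 and 155 CPM with CR-31, with a log2 fold change of 0.83 (SE 0.13, adjusted p = 0.871) without replicate 3 and 0.69 with it. App, Hspa1b, Lamb3, Hspa1l and Maged1 followed it, so 5 of these 6 genes are also among the 10 named from 3 pairs. Acly is the exception, and it was higher in 3 of 3 pairs as well. The 6 genes named as lower without replicate 3 were Gm8909, Gm21188 and the histone genes Hist1h2ab, Hist1h3b, Hist1h2ad and Hist1h4b.

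Gm8909 is a predicted gene in the class I histocompatibility region of chromosome 17 (chr17:36164443-36168537). It had 7.83, 8.98 and 7.51 CPM with vehicle and 0.175, 0.304 and 0.0273 CPM with CR-31, and the fitted log2 fold change was -5.70 (SE 0.56, adjusted p = 0.0177). Without replicate 3 the value was -5.18 (adjusted p = 0.395). In N polysome libraries it had 4.6, 0.295 and 8 CPM with vehicle and 0.072, 2.01 and 0.0257 CPM with CR-31, so replicate 2 was opposite in direction there. In KP total mRNA it was between 0.131 and 1.15 CPM. Class I genes of this region have near-identical copies, and its counts are uncertain for that reason.

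The other 9 genes named as lower had adjusted p-values of 0.265 to 0.532 and so did not pass. They were Gm21188, the histone genes Hist1h3c, Hist1h2bf and Hist1h4k, the desaturase gene Scd3, the ribosomal protein gene Rpl29, Trim7, the cell cycle regulator Cdk2ap1 and B2m, the light chain of class I histocompatibility molecules. Gm21188 had 5.53, 8.25 and 8.03 CPM with vehicle and 2.79, 4.08 and 3.97 CPM with CR-31, and its change was -0.99, -1.02 and -1.01 in the 3 pairs. Cdk2ap1 had 400, 434 and 414 CPM with vehicle and 250, 258 and 208 CPM with CR-31 (log2 fold change -0.81, SE 0.24, adjusted p = 0.526). In both genes all vehicle libraries were above all CR-31 libraries. Over all tested genes, 3.58% were higher and 3.23% lower with groups that did not overlap.

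KP total mRNA gave a comparison that shares no library with this one. The KP libraries of pair 2 lay on different sequencing runs, while each other KP pair lay within a run. All 10 genes named as higher in N had a log2 fold change above 0 in KP, where 51.8% of all tested genes did. Their KP values were 0.61 for App to 0.96 for Maged1. Maged1 had a KP change of 0.96 (SE 0.16, adjusted p = 0.416), Hspa1a 0.83 (SE 0.17, adjusted p = 0.458) and Prom1 0.63 (SE 0.18, adjusted p = 0.734). In KP 0 genes passed at an adjusted p under 0.25, while 494 were higher (4.32%) and 86 lower (0.752%) at an unadjusted p under 0.05, and DESeq2 called 94 and limma-voom 0. Of the 10 genes named as lower in N, 4 were below 0 in KP. A test of the difference between the KP and N effects passed for Gm8909 alone (0.00874%, adjusted p = 0.101). This gene was at 0.22, 0.131 and 0.154 CPM in the KP vehicle libraries, where a fall could hardly be seen. By the same test 104 genes had an unadjusted p under 0.05 (0.909%). For the 10 higher genes that unadjusted p was between 0.0849 (Prom1) and 0.833 (Lamb3), which does not show that the effects were equal.

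**Figure D2:**
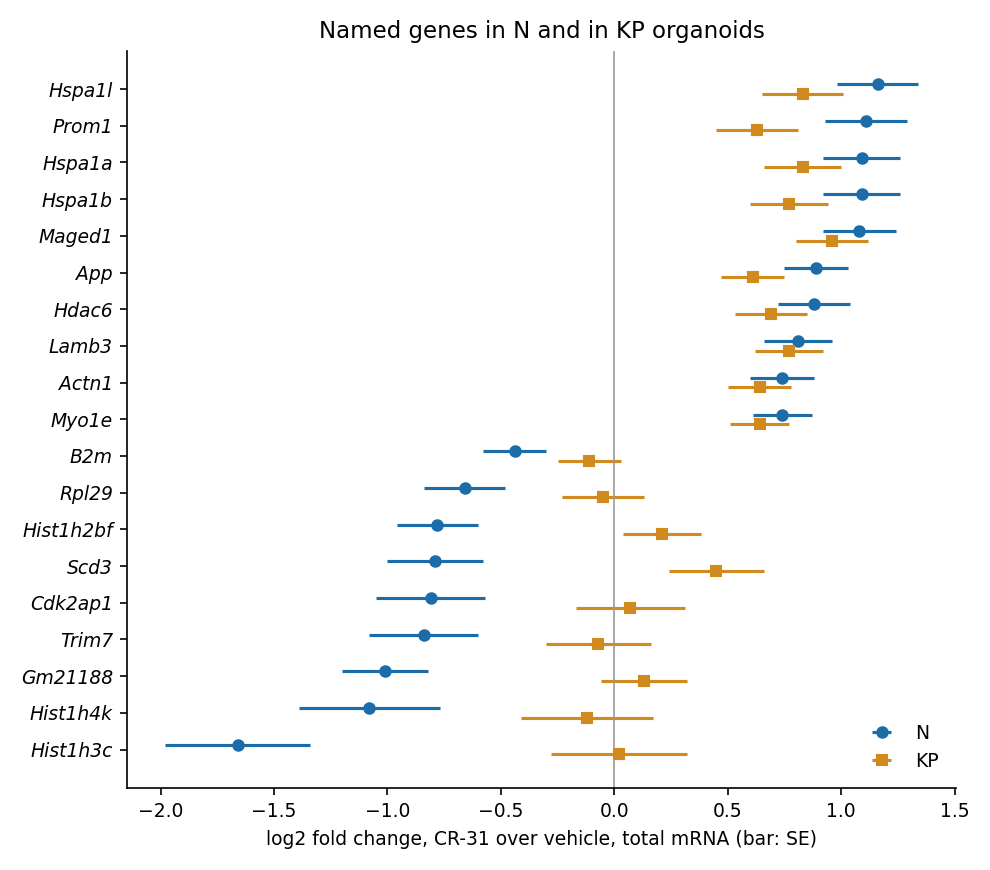
Log2 fold change with CR-31 in total mRNA of N (circles) and KP (squares) organoids for the genes named from 3 pairs, Gm8909 left out because of its scale; bars are standard errors from edgeR. The 10 upper genes lie above 0 in both organoid types, and the 9 lower genes lie between -0.12 and 0.45 in KP.

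Genes were also chosen by their change in N replicates 1 and 2, without N replicate 3. The p-values of that fit use the spread of the KP libraries too, so the KP values of these genes are not fully independent of the choice. With a mean of at least 1 CPM, an unadjusted p under 0.05 without replicate 3 and a higher level in both pairs, 323 genes were found. In total mRNA of replicate 3, 250 of them (77.4%) were also higher with CR-31, against 51.2% of all tested genes, and their median log2 change was 0.52. In KP total mRNA 315 (97.5%) were higher, with a median of 0.37, against 51.8% of all tested genes. In the polysome libraries of the same lysates, 322 were higher in replicate 1 and 311 in replicate 2 but only 53 (16.4%) in replicate 3, where the median was -0.64. Over all tested genes the shares were 49.4%, 49.9% and 49.7%. The lysates of replicates 1 and 2 also gave the total mRNA used for the choice, so their counts are not independent of it. Total mRNA of replicate 3 thus went the way of the other pairs for these genes, and its polysome mRNA went the opposite way. Of 61 genes chosen as lower in the same way, 38 (62.3%) were lower in total mRNA of replicate 3, against 48.8% of all tested genes, and 35 (57.4%) were lower in KP, against 48.2%. In polysome mRNA 54 were lower in replicate 1, 36 in replicate 2 and 32 (52.5%) in replicate 3, against 50.3% of all tested genes in replicate 3. The 16 histone genes among them were lower in KP in 2 cases (12.5%) and the other 45 in 33 (73.3%). In polysome mRNA, 13 of the 16 were lower in replicate 1 but only 3 (18.8%) in replicate 2, where their median was 0.85. Of the other 45, 41 were lower in replicate 1 and 33 in replicate 2.

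Across all tested genes, the change in total mRNA and the change in polysome mRNA of the same lysates were correlated with an r of 0.40 in replicate 1, 0.20 in replicate 2 and -0.67 in replicate 3. These values describe 11438 genes within a replicate, genes are no replicates, and the libraries of a replicate share lysates. Between pairs, the total mRNA changes were correlated with an r of 0.29 for pairs 1 and 2, 0.21 for pairs 1 and 3 and 0.13 for pairs 2 and 3. In levels, total mRNA of vehicle replicate 3 was closer to the polysome library labelled CR-31 (r of 0.984) than to that labelled vehicle (0.964), and total mRNA of CR-31 replicate 3 was closer to the polysome library labelled vehicle (0.986 against 0.962). In replicate 1 each total library was closest to the polysome library of its own treatment, while in replicate 2 both were closer to the CR-31 polysome library. The labels were used as given throughout. For replicate 3, a direction drawn from the libraries labelled vehicle and CR-31 rests on those labels.

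**Figure D3:**
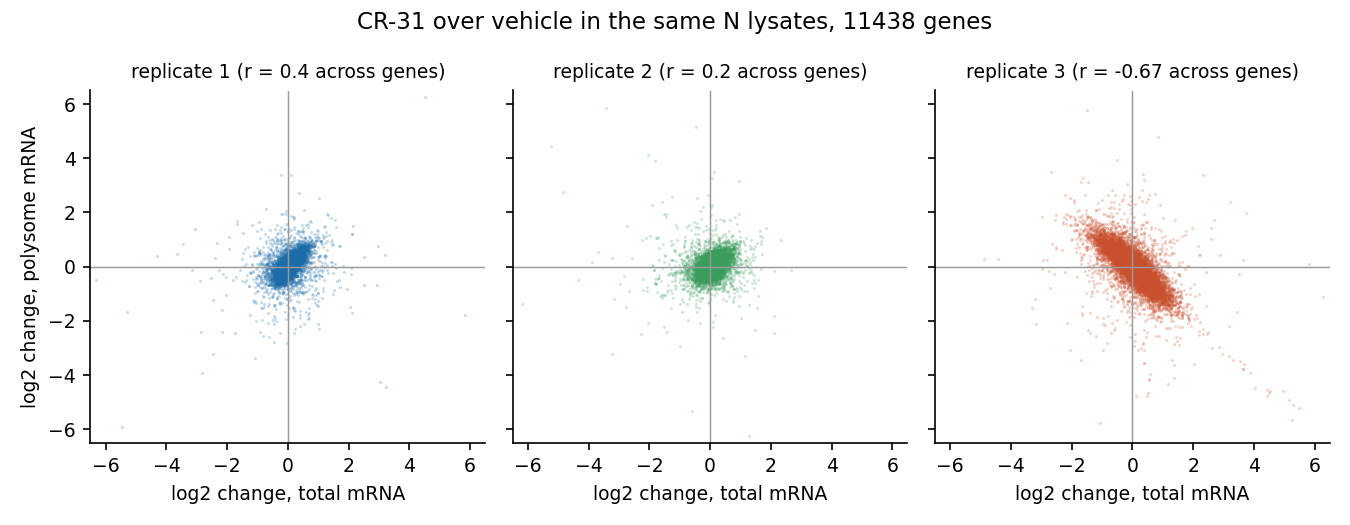
Log2 change with CR-31 in total mRNA (horizontal axis) against polysome mRNA (vertical axis) of the same N lysates, a panel per replicate and a point per gene. Points of replicates 1 and 2 slope upward and those of replicate 3 slope downward, with an r of -0.67; a few points outside the axes are not drawn.

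Immediate early genes, which are transcribed within minutes of a stimulus without new protein synthesis, had the highest median of the 23 gene lists with 3 pairs, but not without replicate 3, where Notch targets (0.21), MAPK feedback inhibitors (0.20) and mitosis genes (0.17) were above them. Of 33 tested, 15 (45.5%, against 20.7% of all genes) were higher in 3 of 3 pairs. By the test 0 passed (smallest adjusted p 0.265, Myc), while 10 were higher and 0 lower at an unadjusted p under 0.05 (30.3%, against 5.63% of all genes), and without replicate 3 there were 6 (18.2%, against 2.91%). The median log2 fold change was 0.76 with 3 pairs and 0.09 without replicate 3, beside 0.00 and -0.01 over all genes. By pair it was 0.26, 0.02 and 1.53. In pair 3, 22 of 33 were more than 2-fold higher with CR-31, against 3 in pair 1 and 0 in pair 2. Of all 11438 tested genes, 582 were so in pair 3, 96 in pair 1 and 77 in pair 2. In KP total mRNA the median was 0.53, with 27 of 33 above 0, against 51.8% of all tested genes.

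Fos, a subunit of the AP-1 transcription factor, had 52.8, 36.5 and 59.5 CPM with vehicle and 121, 46.8 and 2330 CPM with CR-31. Egr1, a zinc finger transcription factor, had 84.6, 191 and 139 CPM with vehicle and 215, 200 and 4350 CPM with CR-31. Jun, the partner of Fos, had 59.1, 120 and 97.2 CPM with vehicle and 133, 190 and 1230 CPM with CR-31. In each of these genes CR-31 replicate 3 was far above the other 5 libraries. In the polysome libraries the high value of replicate 3 was in the one labelled vehicle, with 1720 CPM of Fos, 2540 CPM of Egr1 and 1210 CPM of Jun, against 49.9, 106 and 100 CPM in the one labelled CR-31. Their fitted log2 fold changes were 2.04 (SE 0.80) for Fos, 1.95 (SE 0.78) for Egr1 and 1.78 (SE 0.49) for Jun, with adjusted p-values of 0.532, 0.532 and 0.459. Without replicate 3 they were 0.78, 0.71 and 0.92.

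Myc, the growth-promoting transcription factor, did not share that spike. It had 152, 60.4 and 73.2 CPM with vehicle and 273, 88.3 and 135 CPM with CR-31, with pair changes of 0.84, 0.55 and 0.89 on the log2 scale. The fitted change was 0.76 (SE 0.16, adjusted p = 0.265), 0.70 without replicate 3, and 0.71 (SE 0.16) in KP. Fosl2, another AP-1 subunit, had 86.8, 132 and 109 CPM with vehicle and 147, 188 and 136 CPM with CR-31 (0.53, SE 0.15, and 0.64 without replicate 3), with groups that did not overlap. At the other end of the list, Klf4 was at -0.17.

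MAPK feedback inhibitors, the phosphatases and Sprouty proteins that dampen ERK signalling, had a median of 0.44 with 3 pairs and 0.20 without replicate 3. Of 15 tested, 6 were higher (40%, against 5.63% of all genes) and 0 lower at an unadjusted p under 0.05, and 0 passed (smallest adjusted p 0.352). Without replicate 3 the count was 5 (33.3%, against 2.91%). Dusp6, the ERK phosphatase, had 211, 51.9 and 91 CPM with vehicle and 347, 67 and 177 CPM with CR-31 (0.68, SE 0.15), and 0.66 in KP. Dusp1, itself an immediate early gene, had the largest value of the list, 1.72 (SE 0.68), and carried the same high library, 2320 CPM in CR-31 replicate 3 against 60.9 to 108 CPM in the other 5. Spred1, an inhibitor of ERK signalling, had the smallest, -0.61 (SE 0.29). Without replicate 3 Dusp1 was at 0.58 and Spred1 at -0.17. NF-kB targets had a median of 0.26 that was -0.01 without replicate 3, with 3 of 17 higher (17.6%, against 5.63% of all genes) at an unadjusted p under 0.05. Without replicate 3 that count was 1 (5.88%, against 2.91%), and 1 other gene was lower. The extremes of the list were Tnf, the tumour necrosis factor, at 1.03 (0.19 without replicate 3) and Cxcl5, a neutrophil chemokine, at -0.09.

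Heat shock genes as a list had a median of 0.34 with 3 pairs and -0.04 without replicate 3, with pair medians of -0.01, 0.02 and 1.10. Hspa1a and Hspa1b passed, 5 of 15 were higher at an unadjusted p under 0.05 (33.3%, against 5.63% of all genes, and 3 of 15 or 20% without replicate 3, against 2.91%), and Hspe1, the mitochondrial co-chaperonin, had the smallest value at -0.27. Hsph1, an Hsp70 nucleotide exchange factor, had 53.2, 52.4 and 39.1 CPM with vehicle and 85.2, 89.6 and 96.3 CPM with CR-31 (0.92, SE 0.19, adjusted p = 0.265), with groups that did not overlap. The constitutive chaperone Hspa8 was at -0.09, with 4740 to 7200 CPM over the 6 libraries, and Dnajb1, an Hsp70 co-chaperone, was at 0.12, -0.08 and 2.24 in the 3 pairs. Higher in 3 of 3 pairs were 6 of 15 (40%, against 20.7% of all genes), Hspa1a, Hspa1b and Hsph1 among them, while the median of the list lay near 0 in pairs 1 and 2. Of 12 heat shock genes with a promoter in the RefSeq table, 9 (75.0%) hold GAANNTTC, against 6.87% of the 8848 tested genes matched and 9.04% of all 27025 genes of the table. Among the 7 called genes Hspa1a and Hspa1b hold it. A match is a description of letters in this window only.

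**Figure D4:**
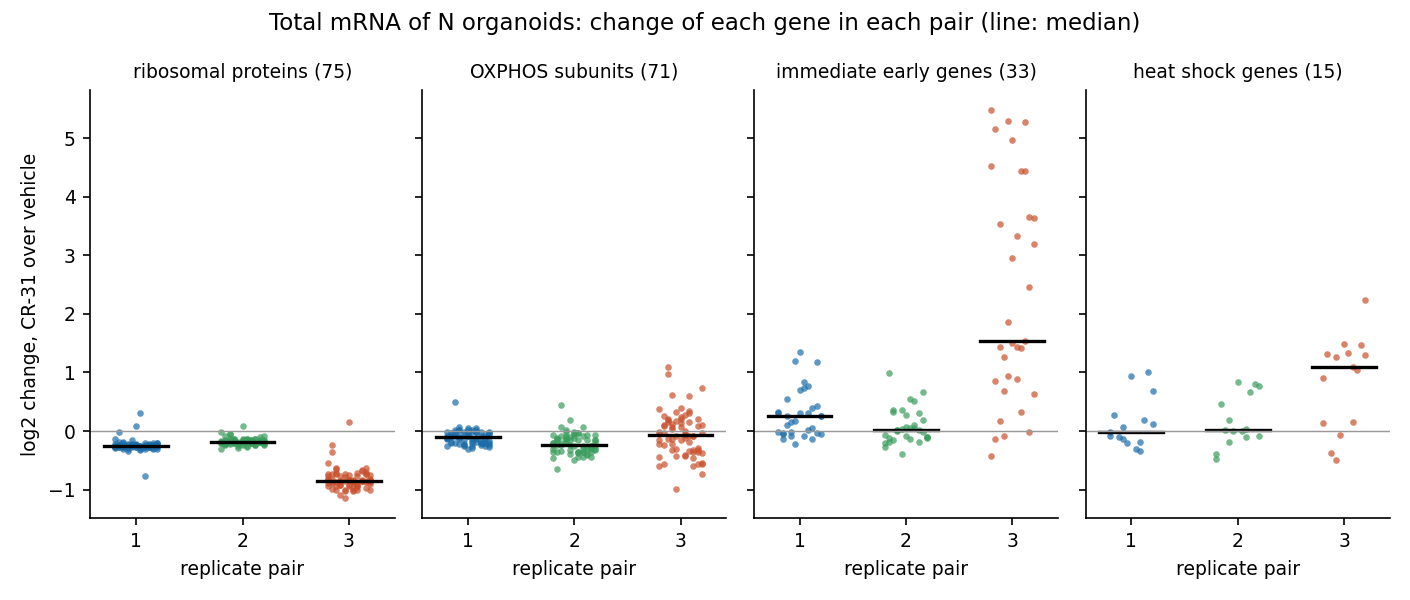
Log2 change with CR-31 of each gene of 4 lists in the 3 pairs of N total mRNA libraries; lines are medians. Ribosomal protein genes have medians of -0.25, -0.18 and -0.85, with 73 of 75 below 0 in 3 of 3 pairs, while immediate early and heat shock genes spread upward in pair 3.

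Cytosolic ribosomal protein genes had a median of -0.43, the lowest of the lists with 3 pairs. Without replicate 3 it was -0.22, above the -0.58 of the replication-dependent histones. Their mRNAs carry a 5′ terminal oligopyrimidine tract, are abundant and stable, and are regulated mainly at translation. Of 75 tested, 0 passed (smallest adjusted p 0.459, Rpl29), and 59 were lower and 0 higher at an unadjusted p under 0.05 (78.7%, against 3.6% of all genes), a count that was 1 without replicate 3 (1.33%, against 0.656%). By pair the medians were -0.25, -0.18 and -0.85. Lower in 3 of 3 pairs were 73 of 75 (97.3%, against 23% of all genes), Rpl7l1 and Rpl32l being the exceptions. In KP total mRNA the median was 0.00, with 39 of 75 above 0, against 51.8% of all genes. The KP pair medians were 0.31, -0.18 and -0.12, so pairs 2 and 3 were below 0 as in N. The difference between the organoid types had an unadjusted p under 0.05 for 2 of 75, against 0.909% of all genes.

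Rplp0, a protein of the ribosomal stalk, had 6200, 7520 and 10100 CPM with vehicle and 5180, 6330 and 4570 CPM with CR-31 (log2 fold change -0.55, SE 0.21). Rpl13a had 3110, 3120 and 5120 CPM with vehicle and 2610, 2730 and 2600 CPM with CR-31 (-0.47, SE 0.20). Rpl29, the named member of the list, had 588, 741 and 1440 CPM with vehicle and 346, 644 and 716 CPM with CR-31 (-0.66, SE 0.18). Vehicle replicate 3 was the highest library for each of them, and without replicate 3 the values were -0.25, -0.22 and -0.48. These genes made up 13.2%, 14.7% and 19.3% of the counted reads of the vehicle libraries and 11.5%, 13.6% and 11.3% of those of CR-31, so vehicle replicate 3 had the highest share of the 6 libraries and CR-31 replicate 3 the lowest.

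Ribosomal protein mRNAs are short, and the relation of the changes to transcript length differed between pairs. The r between log2 transcript length and the change across genes was 0.09, 0.32 and -0.12 in pairs 1, 2 and 3. Among 805 other genes with transcripts under 1000 nt the median log2 fold change was -0.14, and 46.5% were lower in 3 of 3 pairs. In pair 2, the one across lanes, the median of these short genes was -0.21, close to the -0.18 of the ribosomal protein genes. In pair 1 the values were -0.10 and -0.25, and in pair 3 they were -0.10 and -0.85. In pair 3 the median of other genes was 0.12 at 1000 to 2000 nt, 0.10 at 2000 to 4000 nt and -0.16 over 4000 nt, so both the shortest and the longest transcripts were on the lower side. The part of transcript length in the result was not tested.

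Oxidative phosphorylation subunits, whose mRNAs are of a like length (median 681 nt, against 679 nt for the ribosomal proteins), had a median of -0.15 with 3 pairs and -0.16 without replicate 3. Of 71 tested, 42 were lower in 3 of 3 pairs (59.2%, against 23% of all genes), 10 were lower (14.1%, against 3.6% of all genes) and 1 higher at an unadjusted p under 0.05, and 0 passed. Without replicate 3 the 10 lower became 1 (1.41%, against 0.656%). The smallest value was that of Atp5k, an ATP synthase subunit, -0.48 (SE 0.19) and -0.23 without replicate 3. The higher one was Ndufs1, the largest complex I subunit, with 30.6, 28.5 and 22.8 CPM with vehicle and 43.1, 39.1 and 48.8 CPM with CR-31 (0.68, SE 0.20). In KP the median was 0.05, with pair medians of 0.43, -0.18 and -0.02.

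**Figure D5:**
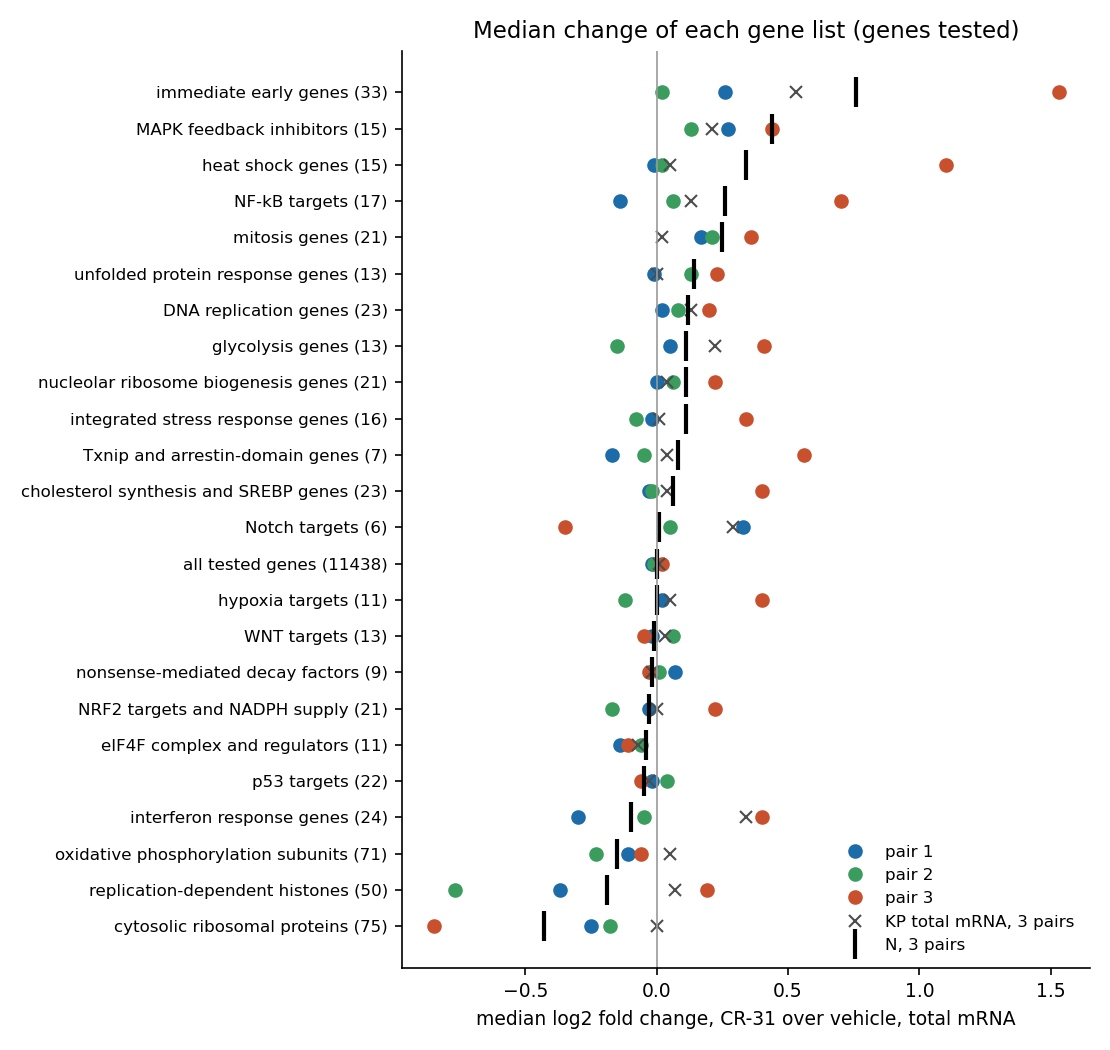
Median log2 fold change with CR-31 of each gene list in total mRNA, with the number of genes tested in brackets; coloured points are the 3 pairs of N, the black bar is the fit of all 3 pairs and the cross is KP. Pair 3 lies farthest from 0 for the immediate early, heat shock and ribosomal protein genes.

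Replication-dependent histones, whose mRNAs end in a stem-loop in place of a poly(A) tail and are made in S phase, had a median of -0.19 with 3 pairs and -0.58 without replicate 3, with pair medians of -0.37, -0.77 and 0.19. With 3 pairs, 14 of 50 were lower (28%, against 3.6% of all genes) and 1 higher at an unadjusted p under 0.05. Without replicate 3, 19 of 50 were lower and 1 higher at an unadjusted p under 0.05 (38% lower, against 0.656% of all genes), and 0 passed. Hist1h2ab had 10.2, 16 and 0.104 CPM with vehicle and 1.86, 3.92 and 0.191 CPM with CR-31. Hist1h2bn had 9.59, 15 and 5.83 CPM with vehicle and 0.117, 0.0608 and 8.33 CPM with CR-31. Hist1h2an, the largest fitted value of the list and of all tested genes at 4.12 (SE 2.06, adjusted p = 0.552), had 0.357, 45 and 0.657 CPM with vehicle and 20.8, 4.21 and 51.1 CPM with CR-31, and was at 0.87 without replicate 3. These 3 genes thus were present or nearly absent from library to library within a group, in either direction. More than 2-fold higher with CR-31 were 8 of 50 members in pair 1, 2 in pair 2 and 10 in pair 3, against 96, 77 and 582 of all 11438 tested genes. Hist1h2bf was lower in 3 of 3 pairs, with 19.1, 38.7 and 15.7 CPM with vehicle and 8.65, 26.3 and 10 CPM with CR-31 (-0.78, SE 0.18, adjusted p = 0.352). In KP total mRNA the median of the list was 0.07, with pair medians of 0.47, -0.32 and -0.05.

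DNA replication genes had a median of 0.12 and mitosis genes one of 0.25, with 0.04 and 0.17 without replicate 3. Cdc6, which loads the replicative helicase, had 5.73, 7.18 and 6.14 CPM with vehicle and 8.76, 11.5 and 9.95 CPM with CR-31 (0.66, SE 0.15, adjusted p = 0.352). Tpx2, a spindle assembly factor, had 22.4, 24.1 and 13.8 CPM with vehicle and 37.7, 41.9 and 21.3 CPM with CR-31 (0.72, SE 0.17, adjusted p = 0.369). Both were higher in 3 of 3 pairs, and neither passed. The largest value among the mitosis genes was 0.76 (SE 0.26) for Kif11, a spindle motor, and the smallest -0.36 for Ube2c, a ubiquitin-conjugating enzyme of mitotic exit, while E2f1 was the smallest of the replication genes at -0.33. Hk2, the inducible hexokinase, had 39.5, 18.4 and 18.3 CPM with vehicle and 71.7, 30 and 29 CPM with CR-31 (0.74, SE 0.15, adjusted p = 0.275). The glycolysis genes had a median of 0.11, and -0.05 without replicate 3, from Pgk1, phosphoglycerate kinase, at -0.34 (SE 0.13) to Pfkfb3, which makes the activator of phosphofructokinase, at 0.87 (SE 0.21).

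Eif4a1, the gene of the drug target, had 1550, 1140 and 1190 CPM with vehicle and 1410, 1020 and 1530 CPM with CR-31, and the log2 fold change was 0.02 (SE 0.15, adjusted p = 0.965). Eif4b, the cofactor of eIF4A, had the smallest value among 11 genes of the eIF4F list, -0.60 (SE 0.24), with 795, 872 and 1150 CPM with vehicle and 631, 837 and 427 CPM with CR-31, and -0.20 without replicate 3. The list had a median of -0.04, and Eif4g3, a scaffold gene, had its largest value at 0.25. Sox9, a duct transcription factor in the WNT target list, had 91.9, 113 and 59.9 CPM with vehicle and 151, 139 and 118 CPM with CR-31 (0.67, SE 0.16, adjusted p = 0.369), and 0.73 in KP.

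In the remaining lists 0 genes passed the test. Integrated stress response genes had a median of 0.11 with 3 pairs and -0.04 without replicate 3, from Psat1 at -0.28 to Ddit4 at 0.39. At an unadjusted p under 0.05 there were 0 of 16, against 9.23% of all genes, a share at which few of 16 would be found. Unfolded protein response genes had 0.14 and 0.04, from Edem1 at -0.39 (-0.14 without replicate 3) to the endoplasmic reticulum chaperone Hsp90b1 at 0.92 (SE 0.30, and 0.44 without replicate 3). The p53 targets had -0.05 and -0.04, from Zmat3 at -0.54 (-0.16 without replicate 3) to the kinase Plk2 at 0.86 (SE 0.21, and 0.57 without replicate 3). Over all tested genes the medians were 0.00 and -0.01, and these 3 lists differed from them by at most 0.14. Cholesterol synthesis genes had 0.06 and -0.03, from Mvd at -0.29 to squalene epoxidase Sqle at 0.45. The NRF2 targets had -0.03 and -0.12, from the glutathione peroxidase Gpx2 at -0.46 to Osgin1 at 0.55. Hypoxia targets had 0.00 and -0.02, from the prolyl hydroxylase Egln1 at -0.50 (-0.18 without replicate 3) to the demethylase Kdm3a at 0.69 (0.43 without replicate 3).

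Nucleolar ribosome biogenesis genes had a median of 0.11 with 3 pairs and 0.04 without replicate 3, from Rrp9 at -0.23 to Nop58 at 0.61. Nonsense-mediated decay factors had -0.02 and 0.07, from Smg5 at -0.37 to Upf3b at 0.43. WNT targets had -0.01 and 0.05, with Sox9 the largest and Nkd1, at most 0.324 CPM, the smallest at -0.52. Notch targets, with 6 genes tested, had 0.01 and 0.21, from Dtx1 at -0.31 to the transcription factor Hes1 at 0.63 (SE 0.21, and 0.29 without replicate 3). Txnip and the arrestin-domain genes had 0.08 and -0.15, from Mlxip at -0.42 to Txnip at 1.02 (SE 0.35), whose pair changes were 0.55, 0.24 and 2.33. Interferon response genes had a median of -0.10 in N, with B2m the smallest at -0.44, and of 0.34 in KP. Their N median was -0.21 without replicate 3, 0.07 without the replicate block, 0.11 without replicate 1 and 0.11 without replicate 2. The difference between the organoid types had an unadjusted p under 0.05 for 3 of 24 of them, against 0.909% of all genes.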

How the data were processed

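RNA was taken from 24 organoid samples (N and KP, vehicle or CR-31, total or polysome mRNA, 3 each). The authors aligned reads with HISAT2, discarded multi-mapped reads and counted coding RefSeq genes over whole transcripts with RPKMforgenes. The deposited table holds raw read counts, which were used, and RPKM values by the authors, which were not. The study's notes name a human build although the genes are mouse RefSeq entries, so no coordinates were taken from them. Of 19895 entries, 1042 with several symbols and 346 that share 136 repeated symbols were left out, and 11438 genes with a count above 0 in all 24 libraries were tested. The 12 total mRNA libraries were fitted together with edgeR 4.0.16 in R 4.3.3 (TMM scaling, quasi-likelihood test, 4 groups, replicate number as a block within organoid type, Benjamini-Hochberg threshold 0.25), and the script was tested on simulated data. Levels are CPM (a gene's count scaled to the size of its library), and pair changes use a prior count of 0.5. Same-numbered N libraries deviated together from their group means (r = 0.89, 0.80 and 0.65). Depth of the 6 N total mRNA libraries was 72077342 to 144504307 counted reads, which cover counting error only.

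Genes were named by p: the first 10 in each direction with a mean of at least 1 CPM and the same sign in 3 of 3 pairs, the first 6 in 2 of 2 pairs without replicate 3, and from lists the largest, the smallest and any that passed. Other genes named, among them Jun, Egr1, Fosl2, Dusp6, Hsph1, Rplp0, Tpx2 and Hk2, were chosen after their values were seen. The members and the 23 lists were chosen with earlier results of these data known. Alternatives were DESeq2 1.42.0, limma 3.58.1 (voom), other scalings, filters and designs, and each replicate left out. Some items, an allele of the KP organoids among them, are not reported here.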

Additional observations from a re-analysis of the deposited data

Results flagged for a closer look

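The effect of CR-31 on Gm8909 differed between organoid types by a test of the difference itself. The KP effect minus the N effect was 6.74 on the log2 scale (SE 0.81, edgeR's quasi-likelihood test, adjusted p = 0.101), with -5.70 in N and 1.04 (SE 0.59) in KP. In N total mRNA it was lower with CR-31 in 3 of 3 pairs, while in N polysome mRNA the change in replicate 2 was 2.75. In KP total mRNA the gene was at 0.22, 0.131 and 0.154 CPM with vehicle and 1.15, 0.142 and 0.144 CPM with CR-31, so the KP value rests on replicate 1. The KP vehicle libraries were near the level of the N libraries with CR-31 (0.175, 0.304 and 0.0273 CPM). A fall like that in N could hardly be seen in KP, so the test cannot tell a different response from a low starting level. Without N replicate 3, 0 genes passed the test of the difference.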

How the results depend on the processing

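Against 7 genes called in N total mRNA, a fit with no replicate block called 0, as did that fit with replicate 3 left out, that fit with the lane as a term and a fit of only the N libraries (1294 genes at an unadjusted p under 0.05). Upper-quartile scaling called 1, an adjusted p under 0.05 called 1, and leaving out a replicate called 0 to 3. No filter on low counts called 24 (20 higher and 4 lower), limma-voom 31 (28 and 3) and DESeq2 275 (246 and 29), where Gm8909 had no adjusted p. RLE scaling and a mean of at least 1 CPM called 7 each. Without replicate 3, the 0 calls became 3679 when only the 4 remaining N libraries were fitted, a setting chosen after seeing the data that has 1 residual degree of freedom. For the difference between KP and N (1 gene), no replicate block and upper-quartile scaling called 0, and leaving out a replicate called 0 to 3. For that difference no filter on low counts called 2 and DESeq2 called 6. The cause of these differences was not tested. None of the 7 called genes changed sign. Of 138 list medians under the alternatives, 16 had the opposite sign to that from 3 pairs, 8 of them without replicate 3, and these came from 12 of the 23 lists. They include heat shock genes (-0.04 without replicate 3), NF-kB targets (-0.01), integrated stress response genes (-0.04), Txnip and arrestin-domain genes (-0.15) and glycolysis genes (-0.05). Of the log2 fold changes of named genes under the alternatives, 118 stayed on their side of the threshold and 32 no longer passed. Those 32 all belong to the 7 called genes, while the 118 include the genes that had not passed with 3 pairs. Of the list medians, 131 moved by less than the spread between pairs and 7 by more. That spread includes pair 3, and the immediate early genes (0.76, and 0.09 without replicate 3) still count among the 131. With 3 pairs, of which replicate 3 differs, the number of pairs limits the precision.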

Other observations

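The binding motif of serum response factor, the CArG box, was searched in the same promoters because immediate early genes and MAPK feedback inhibitors are its known targets. It was found in 2 of 25 matched immediate early genes (8%, Egr2 and Zfp36) and in 1 of 13 matched MAPK feedback inhibitors (7.69%, Dusp5), against 1.65% of tested genes and 1.81% of the promoter table. Dusp5 is shown because it had 2 overlapping windows, of which the first is printed with the motif in capitals (RefSeq, GRCm38.p6, chr19:53529053-53529082, plus strand).
Dusp5: ggggaaatacCCATATTTGGccttatatgg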
